A study of Mus musculus with 6 samples.

Results

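The 10 genes described here encode receptors that add a second signal to that of the T cell antigen receptor. They are the costimulatory receptors Cd28 and Icos, the inhibitory checkpoint receptors Ctla4, Pdcd1, Lag3, Havcr2 and Tigit, and the receptors of the tumor necrosis factor (TNF) receptor family Tnfrsf4, Tnfrsf9 and Tnfrsf18. They were taken by gene symbol from the 41079 genes listed in the deposited expression table, and each symbol matched 1 row. The study asked whether gene expression changes when T cells acclimate to cold. Cultures of D10 cells, a cloned mouse helper T cell line specific for conalbumin and labelled as CD4+ and of lymph node origin, were kept for 24 h at 26°C (cold-acclimated, 3 libraries) or for 24 h at 37°C (non-acclimated, 3 libraries). The labels give both conditions the same cloned line and the same medium, and name no transgene or drug.

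The labels number the cultures 1 to 3 in each condition and state that RNA was extracted in old and new batches, without saying which library belongs to which. Each library held 16899628 to 31290854 reads, recovered from the steps of its TPM values. TPM, a unit of relative transcript abundance, is a read number divided by gene length and scaled to the same total in every library. The CD3 genes of the T cell receptor complex, Cd3d, Cd3e and Cd3g, were at 64.3 TPM or more in all 6 libraries, and the 12 T cell markers summed to 3849 to 5351 TPM at 37°C and 4558 to 5648 TPM at 26°C. Cd4, the co-receptor that names the labelled cell type, went against the label in part. It stood at 0.0351 to 1.30 TPM in the libraries of replicates 1 and 2, and at 310 and 328 TPM in the 37°C and 26°C libraries of replicate 3. Trac, the constant region of the T cell receptor alpha chain, was at 15.0 and 12.8 TPM in replicate 2 and at 129 to 207 TPM in the other libraries. Cd5, a surface protein of most T cells, was at 0 in 5 libraries and at 0.0454 TPM in cold-acclimated replicate 3. The labels do not describe these differences between cultures of 1 cloned line, and whether the cultures are of the same subline was not tested. Gzmb, a cytotoxic granule protease, was at 1122 and 776 TPM in replicate 3 and at 6260 to 13037 TPM in the others. Prf1, of the same marker list as Gzmb, was at 17.9 to 50.6 TPM at 37°C and 7.75 to 40.4 TPM at 26°C. Cd8a, Klrb1c and Ncr1, also of that list of cytotoxic T cell and natural killer cell markers, were at 0 in every library. Regulatory T cell markers summed to 16.8 to 62.2 TPM at 37°C and 40.4 to 55.2 TPM at 26°C. Most of that was Ikzf4 (12.1 to 37.7 TPM), with Foxp3 at 2.26 to 9.80 TPM. Itgae was at 16.6 and 12.5 TPM in replicate 3 and at most 0.587 TPM in the others. B cell markers summed to at most 11.5 TPM and macrophage and dendritic cell markers to at most 21.3 TPM. These are whole-culture values, in which fewer expressing cells and less RNA per cell cannot be told apart.

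A T cell that meets its antigen without costimulation responds poorly. CD28 and ICOS are related receptors that bind ligands on antigen-presenting cells and strengthen the response, while CTLA-4 competes with CD28 for the same ligands and restrains it. PD-1 (Pdcd1), LAG-3, TIM-3 (Havcr2) and TIGIT limit T cells that have been stimulated, and OX40 (Tnfrsf4), 4-1BB (Tnfrsf9) and GITR (Tnfrsf18) signal through TRAF adaptors and favor survival and cytokine production. Several of these genes are neighbours. On mouse chromosome 1 (GRCm39), Cd28 (chr1:60785547-60812521), Ctla4 (chr1:60948184-60954991) and Icos (chr1:60999909-61039481) follow each other on the plus strand with no protein-coding gene between them. On chromosome 4, Tnfrsf4 (chr4:156098049-156101070) and Tnfrsf18 (chr4:156110779-156113351) lie 9708 bases apart on the plus strand.

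The 250 bases before the canonical transcript start in the GENCODE annotation are printed for Icos, Pdcd1 and Tnfrsf18, because Icos was higher in every cold-acclimated culture than in any non-acclimated culture, and Pdcd1 and Tnfrsf18 were lower at 26°C within every replicate number. Sequences read 5′ to 3′ on the strand of the gene, and capitals mark matches to the core motif of NFAT (GGAAA, either strand), an activation-induced transcription factor. The positions are chr1:61016836-61017085 (plus strand) for Icos, chr1:93980313-93980562 (minus strand) for Pdcd1 and chr4:156110371-156110620 (plus strand) for Tnfrsf18. The Icos window lies inside the span that the expression table gives for the gene (chr1:60999909-61039481), which starts further upstream. The windows of Pdcd1 and Tnfrsf18 lie upstream of the spans given there without adjoining them.
Icos: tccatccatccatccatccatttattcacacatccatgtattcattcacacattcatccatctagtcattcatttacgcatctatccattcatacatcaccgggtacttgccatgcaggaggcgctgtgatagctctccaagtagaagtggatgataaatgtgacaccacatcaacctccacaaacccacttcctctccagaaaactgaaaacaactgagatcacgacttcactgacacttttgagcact
Pdcd1: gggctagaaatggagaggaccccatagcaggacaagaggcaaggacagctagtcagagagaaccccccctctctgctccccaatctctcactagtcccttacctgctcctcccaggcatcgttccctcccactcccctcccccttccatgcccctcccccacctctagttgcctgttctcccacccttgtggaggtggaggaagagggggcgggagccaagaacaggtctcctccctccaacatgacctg
Tnfrsf18: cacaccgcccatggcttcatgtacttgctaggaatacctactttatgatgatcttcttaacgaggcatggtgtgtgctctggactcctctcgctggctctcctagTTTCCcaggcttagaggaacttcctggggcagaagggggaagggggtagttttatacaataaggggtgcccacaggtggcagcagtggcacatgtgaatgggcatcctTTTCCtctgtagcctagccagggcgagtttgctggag

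The Tnfrsf18 window held 2 NFAT core matches, whose first bases lie 145 and 37 bases upstream of the start, and neither of the other windows held one. Over the same window, 58.0% of 21770 promoters of protein-coding genes held the NFAT core, and 5 of the 10 receptor genes did (Ctla4, Lag3, Tigit, Tnfrsf9 and Tnfrsf18). The AP-1 site TGANTCA was present at Havcr2 and Tnfrsf9 and in 6.17% of promoters. The GATA site AGATAA was present at Cd28 and Havcr2 and in 9.6% of promoters, and an NF-kB site at Tnfrsf9 and in 7.62%. The TATA box TATAAA was found at Tnfrsf18, on its minus strand, and in 11.9% of promoters. All motifs were searched on both strands. They describe the letters of these windows, and no binding was measured. The window of Tnfrsf4 lies in the last exon of the upstream gene Sdf4 and is not shown.

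The receptor genes spanned a wide range of transcript levels, and their order was similar at both temperatures. By mean TPM at 37°C, the order was Lag3 (457), Icos (350), Tnfrsf9 (148), Tnfrsf18 (53.2), Cd28 (38.5), Ctla4 (20.3), Havcr2 (19.7), Tigit (15.4), Pdcd1 (4.84) and Tnfrsf4 (0.615). At 26°C it was Icos (666), Lag3 (511), Tnfrsf9 (142), Tnfrsf18 (32.6), Cd28 (23.3), Havcr2 (22.2), Ctla4 (20.1), Tigit (7.13), Tnfrsf4 (3.25) and Pdcd1 (0.960). Most neighbours in these orders had overlapping ranges over the 3 cultures. The exceptions were Icos above Tnfrsf9 at 37°C and Tnfrsf4 above Pdcd1 at 26°C. The change of place between Lag3 and Icos appears in the means and in no single culture.

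**Figure D1:**
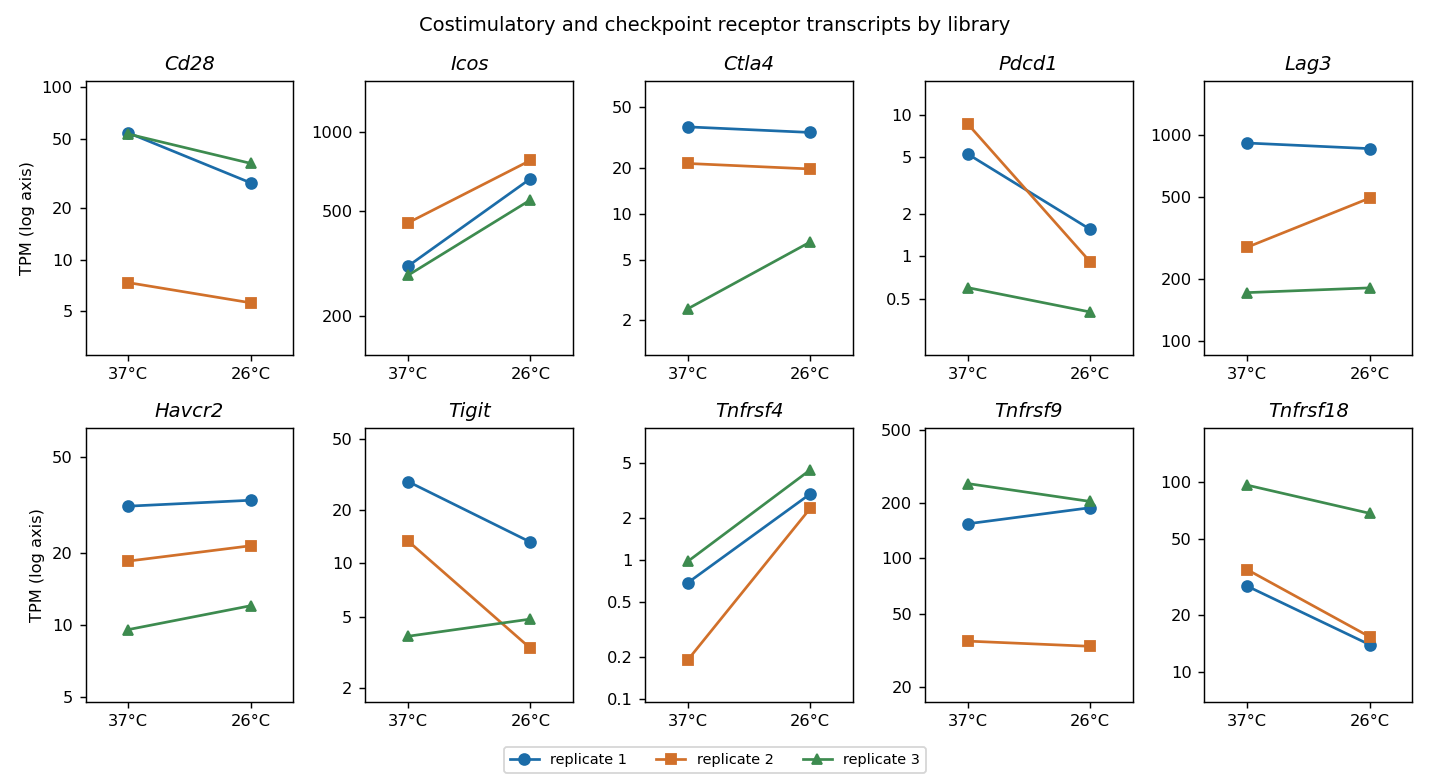
Transcript level of each receptor gene in TPM (log axis, with its own range in each panel) at 37°C and 26°C. Each line joins the libraries of 1 replicate number. Icos and Tnfrsf4 are the genes whose 3 cold values all lie above all 3 values at 37°C, and the 3 lines keep their order at both temperatures for 7 of the 10 genes (all but Cd28, Pdcd1 and Tigit).

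Icos, the inducible costimulator that sustains helper T cell cytokine responses, was higher in the cold in all 3 cultures. It measured 310, 453 and 286 TPM in non-acclimated replicates 1, 2 and 3, and 665, 781 and 553 TPM in the cold-acclimated replicates. Every cold-acclimated culture lay above every non-acclimated one. The 26°C to 37°C ratio was 2.15, 1.72 and 1.93 in replicates 1, 2 and 3, with counting intervals (95%, exact) that reached from 1.69 to 2.20 over the 3 replicates. In the limma fit over 12227 genes the log2 fold change was 0.94 (SE 0.27, 95% interval 0.32 to 1.56, adjusted p = 0.0436). It thus passed the threshold on p (0.05) and not that on size (1 on the log2 scale), so Icos was not called. The call depended on the scaling and on the filter. Icos passed both thresholds when libraries were rescaled by median of ratios factors (1.34, adjusted p = 0.022, where 6.56% of tested genes were called higher and 8.79% lower) or when recovered reads were fitted with voom (1.32, adjusted p = 0.0213). It passed neither with quantile normalization (0.86, adjusted p = 0.0716), and without the filter on low values the adjusted p was 0.08. Leaving out 1 library at a time, Icos was called without cold-acclimated replicate 3 (1.07, adjusted p = 0.0316, where 3.75% of tested genes were called higher), and the adjusted p was 0.071 to 0.145 without any of the other 5, at log2 fold changes of 0.81 to 1.14.

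Tnfrsf4, which encodes OX40, a receptor that prolongs the survival of activated helper T cells, was the only receptor gene called in the fit. It measured 0.683, 0.190 and 0.973 TPM in non-acclimated replicates 1, 2 and 3, from 6, 2 and 15 reads. In the cold-acclimated replicates it measured 2.98, 2.34 and 4.43 TPM, from 33, 27 and 58 reads. All cold-acclimated values lay above all non-acclimated ones, at a low level throughout. The ratio was 4.36 in replicate 1 (counting interval 1.80 to 12.7), 12.3 in replicate 2 (3.10 to 107) and 4.56 in replicate 3 (2.55 to 8.66). Its log2 fold change was 1.40 on the log2(TPM + 1) scale (SE 0.34, 95% interval 0.60 to 2.19, adjusted p = 0.0293). Tnfrsf4 entered the test through its level at 26°C alone, and when genes were tested without the filter on low values its adjusted p was 0.0513 and the call was lost.

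The Tnfrsf4 call also depended on single libraries. Without any 1 of the libraries the adjusted p ranged from 0.0332 to 0.103 and the log2 fold change from 1.19 to 1.56. The call was lost without non-acclimated replicate 1 (limma, adjusted p = 0.077) or 2 (0.103), and without cold-acclimated replicate 1 (0.0931), 2 (0.0703) or 3 (0.052). Of all 12227 tested genes, 321 were called higher with all libraries. Without non-acclimated replicates 1, 2 and 3 in turn, 78, 59 and 395 were. Without cold-acclimated replicates 1, 2 and 3 in turn, 72, 78 and 459 were. The last 19 bases of Sdf4 overlap its start on the same strand. Sdf4, which encodes a calcium-binding protein of the Golgi, averaged 113 TPM at 37°C and 135 TPM at 26°C (log2 fold change 0.27, adjusted p = 0.521), and what reads from Sdf4 add to the Tnfrsf4 value was not tested.

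Across the 10 receptors, 1 of 10 genes was called higher, where 2.63% of all tested genes were, and 0 of 10 were called lower, where 16% of tested genes were. At an adjusted p under 0.05 without the size threshold, 2 receptors were higher (Icos and Tnfrsf4, against 3.3% of tested genes) and 0 were lower (17.4%). The same 2 were higher at an unadjusted p under 0.05 (7.75% of tested genes), and 0 were lower (30%). With voom on recovered reads, 2 receptors were called higher (Icos and Tnfrsf4, against 5.86% of tested genes) and 0 lower (9.57%). Icos and Tnfrsf4 were also the receptors whose conditions did not overlap, against 9.69% of tested genes that were higher without overlap, and none of the 31.4% that were lower without overlap was a receptor of this group. The median log2 fold change of the 10 genes was 0.08, beside -0.34 for all tested genes. Median of ratios scaling moved both, to 0.46 and 0.02. With the replicate number as a term, 1 receptor was called higher (Tnfrsf4, against 3.75% of tested genes) and 0 lower (21.9%). All 10 genes passed the filter on low values (mean over the 6 libraries of 1 TPM or more), Tnfrsf4 through its level at 26°C and Pdcd1 (mean 0.960 TPM at 26°C) through its level at 37°C.

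**Figure D2:**
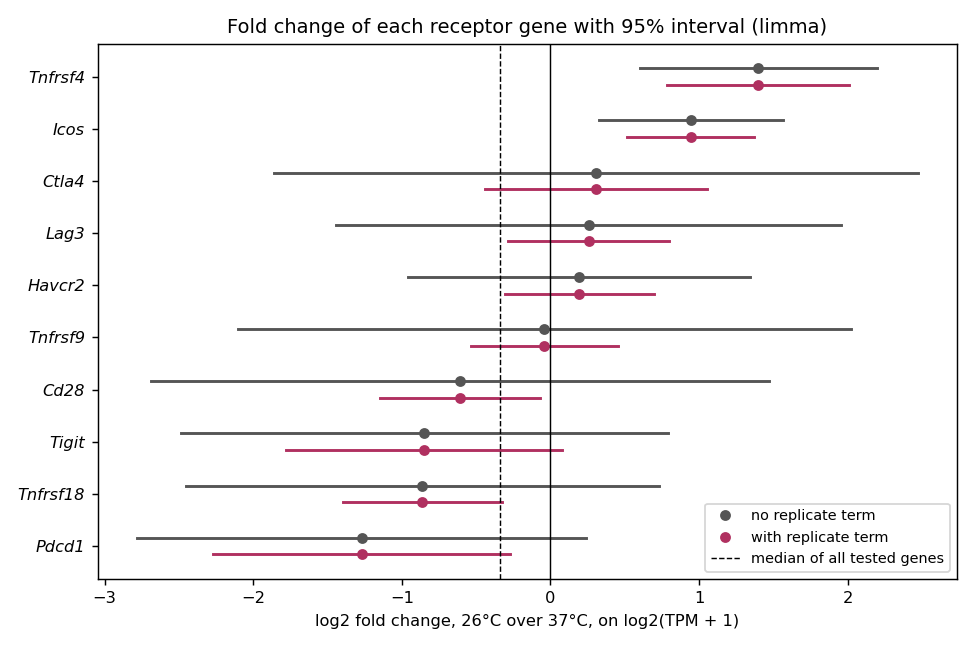
Log2 fold change at 26°C over 37°C of each receptor gene on log2(TPM + 1), with the 95% interval from limma without (grey) and with (red) the replicate number as a term. The dashed line is the median of all tested genes, -0.34. The intervals of Icos and Tnfrsf4 lie above 0 in both fits, and those of Cd28, Tnfrsf18 and Pdcd1 lie below 0 with the replicate term. Both fits are on TPM as deposited, without rescaling of libraries.

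The remaining receptors differed more between cultures than between temperatures, and the replicate numbers paired the libraries. Cd28, the main costimulatory receptor of naive and helper T cells, measured 54.5, 7.35 and 53.6 TPM in non-acclimated replicates 1, 2 and 3 and 27.9, 5.61 and 36.2 TPM in the cold-acclimated ones. Replicate 2 was the lowest at either temperature, and the conditions overlapped. Within each replicate number the cold value was the lower, with ratios of 0.512, 0.764 and 0.676. The log2 fold change in the limma fit was -0.61 (SE 0.89, 95% interval -2.69 to 1.47, adjusted p = 0.661). With the replicate number as a term the interval was -1.15 to -0.07 (adjusted p = 0.0745). Rescaled by median of ratios factors and with that term, Cd28 was at -0.24 (adjusted p = 0.409).

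Ctla4, the inhibitory receptor for the ligands of CD28, measured 37.2, 21.4 and 2.37 TPM at 37°C and 34.2, 19.7 and 6.52 TPM at 26°C. Replicate 3 was far below the others at both temperatures, and only there was the cold value the higher. The ratios were 0.919 and 0.920 in replicates 1 and 2 and 2.74 in replicate 3. The first 2 have counting intervals that include 1 (0.818 to 1.03 and 0.796 to 1.06), and the last does not (2.02 to 3.77). In the fit Ctla4 had a log2 fold change of 0.31 (SE 0.93, adjusted p = 0.846).

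Pdcd1, the gene of the checkpoint receptor PD-1, was a low transcript with the largest proportional decrease in single cultures. It measured 5.28, 8.62 and 0.602 TPM at 37°C, from 70, 137 and 14 reads, and 1.55, 0.920 and 0.405 TPM at 26°C, from 26, 16 and 8 reads. The cold value was lower within every replicate number, but replicate 3 was already low at 37°C, so that the conditions overlapped. The ratio was 0.294 in replicate 1 (counting interval 0.180 to 0.468), 0.107 in replicate 2 (0.0593 to 0.179) and 0.674 in replicate 3 (0.245 to 1.72). The log2 fold change was -1.27 (SE 0.65, 95% interval -2.78 to 0.24, adjusted p = 0.197), and with the replicate term the adjusted p was 0.0535. With voom on recovered reads and the replicate term, Pdcd1 was called lower (-1.70, adjusted p = 0.0448, where 15.6% of tested genes were called lower and 8.82% higher). Without non-acclimated replicate 3 it was also called lower (-2.03, adjusted p = 0.0217, where 14.9% of tested genes were called lower), and without non-acclimated replicate 2 it was at -0.74 (adjusted p = 0.483).

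Lag3, an inhibitory receptor that binds MHC class II molecules, had the highest mean TPM of the receptors at 37°C, a mean carried by replicate 1. It measured 914, 285 and 172 TPM at 37°C and 858, 494 and 181 TPM at 26°C. Replicate 1 was the highest and replicate 3 the lowest at both temperatures. In replicates 2 and 3 Lag3 lay below Icos at either temperature, and in replicate 1 above it. The ratios were 0.939, 1.73 and 1.05 in replicates 1, 2 and 3. In the fit Lag3 had a log2 fold change of 0.26 (SE 0.73, 95% interval -1.44 to 1.96, adjusted p = 0.834).

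Havcr2, which encodes TIM-3, measured 31.3, 18.4 and 9.55 TPM at 37°C and 33.1, 21.4 and 12.0 TPM at 26°C. The replicates kept the order 1, 2, 3 at both temperatures, and the cold value was slightly the higher in each. The ratios were 1.06, 1.16 and 1.26, and the log2 fold change was 0.19 (SE 0.49, adjusted p = 0.813).

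Tigit, an inhibitory receptor that competes with CD226 for the ligand CD155, measured 28.9, 13.4 and 3.89 TPM at 37°C and 13.2, 3.33 and 4.86 TPM at 26°C. The cold value was the lower in replicates 1 and 2, with ratios of 0.456 and 0.249, and not in replicate 3, with a ratio of 1.25 (counting interval 0.942 to 1.66). In the fit Tigit had a log2 fold change of -0.85 (SE 0.70, adjusted p = 0.421).

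Tnfrsf9, the gene of 4-1BB, measured 154, 35.5 and 255 TPM at 37°C and 188, 33.3 and 204 TPM at 26°C. Replicate 2 was the lowest at both temperatures, and the direction of the difference was not shared by the cultures, with ratios of 1.22, 0.937 and 0.800. The log2 fold change was -0.04 (SE 0.89, adjusted p = 0.98), and the interval with the replicate term was -0.54 to 0.45.

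Tnfrsf18, the gene of GITR, measured 28.3, 34.6 and 96.7 TPM at 37°C and 13.9, 15.3 and 68.7 TPM at 26°C. Replicate 3 was the highest at both temperatures, and within each replicate number the cold value was the lower, with ratios of 0.491, 0.443 and 0.710. The log2 fold change was -0.86 (SE 0.68, 95% interval -2.46 to 0.73, adjusted p = 0.401). With the replicate term the interval was -1.40 to -0.33 and the adjusted p was 0.0267, so that Tnfrsf18 passed the threshold on p there, as 29% of tested genes did in the lower direction. Rescaled by median of ratios factors, it no longer passed with the replicate term, and 17.2% of tested genes did. The gene lies inside Gm16008, a noncoding gene on the opposite strand at 4.54 TPM at 37°C and 2.36 TPM at 26°C. The strand setting of the read counting is not given in the sources used here, and without strand the reads of both genes cannot be told apart.

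Within the replicate numbers, 3 receptors were higher in the cold in every culture (Icos, Havcr2 and Tnfrsf4), where 18.2% of tested genes were, and 3 were lower in every culture (Cd28, Pdcd1 and Tnfrsf18), where 47.9% of tested genes were. The remaining 4 were of mixed direction. These directions and shares are those of TPM as deposited. The median of ratios factors were 1.12, 1.21 and 1.17 in non-acclimated replicates 1, 2 and 3. In the cold-acclimated ones they were 0.844, 0.842 and 0.966, so dividing by them raises every 26°C to 37°C ratio. Directions within replicate numbers were not counted after that scaling. The sum of squares of log2(TPM + 1) over the 6 libraries was split into a temperature share, a replicate share and a remainder. For the 10 receptors the median shares were 11.9% for temperature and 86.1% for the replicate number, whereas over all tested genes the medians were 44.7% and 31.5%. The temperature share was 84.6% for Tnfrsf4 and 78.2% for Icos, 37.6% for Pdcd1, 18.7% for Tnfrsf18, 17.7% for Tigit and 0.0302% to 6.12% for the other 5 genes. The replicate share exceeded the temperature share in 8 of the 10 receptors and in 45.2% of tested genes. At 37°C, the highest culture exceeded the lowest 15.6-fold for Ctla4, 14.3-fold for Pdcd1, 7.44-fold for Tigit, 7.41-fold for Cd28 and 7.18-fold for Tnfrsf9, but 1.58-fold for Icos.

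**Figure D3:**
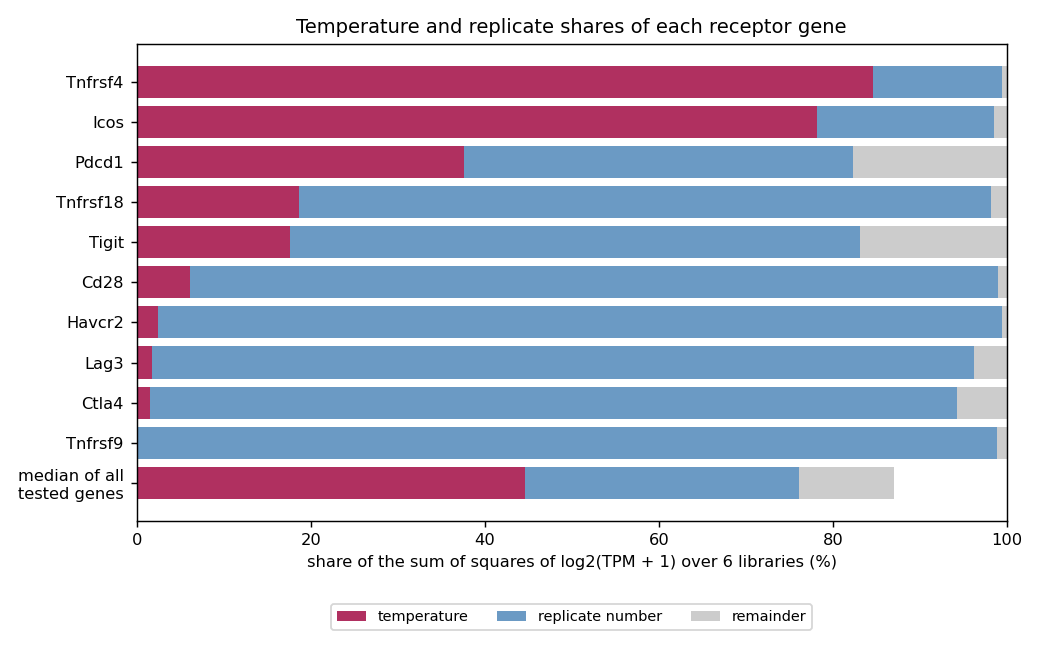
Share of the sum of squares of log2(TPM + 1) over 6 libraries that goes with temperature, with the replicate number and with neither, for each receptor gene and as the median of each share over all tested genes (medians need not sum to 100%). Tnfrsf4 and Icos are mostly red (84.6% and 78.2% temperature), and the replicate share is the largest for the other 8 genes.

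At both temperatures, 5 of the 10 receptors (Icos, Ctla4, Pdcd1, Lag3 and Havcr2) were lowest in replicate 3, where 17.7% of tested genes were. Tigit was lowest in replicate 3 at 37°C and in replicate 2 at 26°C. The inhibitory receptor genes Btla, Cd200r1, Pvrig and Cd160 belong to the list of other co-signalling receptors and were chosen after their values were seen. They were highest in replicate 3 at both temperatures, where 27.1% of tested genes were. So were Cd226, Cd101, Cd2, Cd7 and Cd40lg among the tested genes of that list. Cd96, Cd200, Klrg1, Slamf1, Tnfrsf8 and Tnfrsf14 of the same list went the other way. These were lowest in replicate 3 at both temperatures (17.7% of tested genes). Cd28, Tnfrsf4 and Tnfrsf9 were lowest in replicate 2 at both temperatures (12% of tested genes), as was Trac. Tnfrsf4, Tnfrsf9 and Tnfrsf18 were highest in replicate 3 (27.1% of tested genes). Replicate 3 is also the culture with Cd4 transcript and with the lowest Gzmb. The part of these culture differences in the temperature results was not tested beyond leaving cultures out. Without both libraries of replicate 3, Icos (0.94, adjusted p = 0.047) and Tnfrsf4 (1.36, adjusted p = 0.0245) were on the same side of each threshold as with all libraries, and Pdcd1 (-1.81, adjusted p = 0.0127) and Tnfrsf18 (-1.05, adjusted p = 0.0216) were called lower. In that fit 25.3% of tested genes were called lower and 5.34% higher. Without both libraries of replicate 1, limma called 0 of the 12227 genes in either direction, with 400 higher and 2010 lower at an unadjusted p under 0.05. Without both libraries of replicate 2 it also called 0, with 380 higher and 1849 lower at an unadjusted p under 0.05.

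Ratios between receptors were taken within each library, on TPM + 1. The log2 ratio of Ctla4 to Cd28, receptors of opposite effect that share ligands, was -0.54, 1.42 and -4.02 in non-acclimated replicates 1, 2 and 3 and 0.28, 1.64 and -2.31 in cold-acclimated ones. It was higher in the cold in 3 of 3 replicates, by 0.92 on average, with wide overlap between conditions (exact permutation test, two-sided, p = 0.6, adjusted over 3 ratios 0.6). The log2 ratio of Icos to Cd28 was 2.49, 5.76 and 2.39 at 37°C and 4.53, 6.89 and 3.89 at 26°C. It was also higher in 3 of 3 replicates, by 1.55 on average (exact permutation test, p = 0.3, adjusted 0.45). The difference was 0.66 when cold-acclimated replicate 2 was left out, and was 2.66 when its non-acclimated counterpart was.

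The ratio of the neighbours Tnfrsf4 and Tnfrsf18 separated the conditions. Its log2 value on TPM + 1 was -4.12, -4.90 and -5.63 at 37°C and -1.91, -2.29 and -3.68 at 26°C, a mean difference of 2.26. The size depended on the constant added to the low Tnfrsf4 values, with a difference of 3.27 on TPM + 0.1 and of 3.54 on TPM itself. All cold-acclimated values lay above all non-acclimated values (exact permutation test, two-sided, p = 0.1, the smallest that 3 against 3 libraries can give, adjusted 0.3). In the exact sign-flip test over the 3 replicate differences, each of these ratios gave p = 0.25, the smallest possible.

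The ligands of these receptors are made mainly by antigen-presenting cells. Of 15 ligand genes, 6 passed the filter and 0 were called in either direction, where 2.63% of all tested genes were called higher and 16% lower. Their median log2 fold change was -0.35, beside -0.34 for all tested genes. Lgals9, which encodes galectin-9, a ligand of TIM-3, was the most abundant, at 444 ± 224 TPM at 37°C and 321 ± 99.4 TPM at 26°C (SD, n = 3; log2 fold change -0.37, adjusted p = 0.585). Cd86, a ligand of CD28 and CTLA-4, was at 0 in every library.

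Among 17 tested genes of other co-signalling receptors, 0 were called higher and 1 was called lower, where 2.63% and 16% of all tested genes were, with a median of -0.26. Cd200r1, an inhibitory receptor for CD200, fell from 25.6 ± 7.43 to 3.44 ± 2.25 TPM (SD, n = 3; log2 fold change -2.66, SE 0.40, adjusted p = 0.00846), and the call held without any 1 library. With the replicate term 3 were called lower, against 21.9% of tested genes, the others being Cd200 (-1.27, adjusted p = 0.0195), which encodes the ligand of that receptor, and the inhibitory receptor gene Btla (-1.05, adjusted p = 0.0221). Both were chosen after their values were seen. Cd96, which shares ligands with TIGIT, was the most abundant gene of the list, at 325 ± 182 TPM at 37°C and 400 ± 115 TPM at 26°C (adjusted p = 0.53).

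The signal transducers of the antigen receptor and of costimulation had 28 tested genes, of which 0 were called higher and 6 lower, beside 2.63% and 16% of all tested genes, with a median of -0.12. Traf1, an adaptor of OX40, 4-1BB and other TNF receptors, fell from 25.5 ± 4.81 to 5.02 ± 2.04 TPM (log2 fold change -2.19, SE 0.34, adjusted p = 0.00904). Vav1, an exchange factor downstream of CD28, fell from 130 ± 14.3 to 38.7 ± 21.1 TPM (-1.83, SE 0.36, adjusted p = 0.0159). The other 4 were Ptpn6 and Ptpn11, the phosphatases SHP-1 and SHP-2 (SHP-2 binds PD-1), Pik3cd, a lipid kinase subunit, and Prkcq, a kinase of the CD28 pathway. Under median of ratios scaling 3 of the 28 were called lower, beside 8.79% of all tested genes. Lck, the kinase that starts antigen receptor signalling, was the most abundant, at 388 ± 173 and 464 ± 255 TPM (adjusted p = 0.815).

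Of 14 tested genes for transport and turnover of surface receptors, 0 were called higher and 3 lower, beside the same 2.63% and 16%, with a median of -0.52. Fbxo38, a ubiquitin ligase component that acts on PD-1, fell from 22.2 ± 4.80 to 6.25 ± 0.791 TPM (log2 fold change -1.66, SE 0.26, adjusted p = 0.00931). Adam10, a protease that cuts LAG-3 and other receptors from the surface, fell from 274 ± 139 to 85.8 ± 12.5 TPM (-1.54, SE 0.39, adjusted p = 0.0328). Rab8a, a small GTPase of vesicle transport, was also called lower (-1.35, adjusted p = 0.039). Median of ratios scaling left 1 called lower. With the replicate term 1 was called higher, Cmtm6 (1.01, adjusted p = 0.0167), where 3.75% of tested genes were. With that term 4 were called lower, against 21.9% of tested genes, the added one being Ap1m1 (-1.31, adjusted p = 0.0118). Arf1, a GTPase of the Golgi, was the most abundant, at 752 ± 92.3 and 846 ± 109 TPM (adjusted p = 0.632).

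Regulators of transcript stability included the proteins that degrade Icos and Tnfrsf4 mRNA. Of 10 tested genes, 0 were called higher and 1 lower, beside the same 2.63% and 16%, with a median of 0.09. Zfp36, which promotes decay of AU-rich mRNAs, fell from 97.2 ± 48.3 to 38.1 ± 7.83 TPM (log2 fold change -1.24, SE 0.36, adjusted p = 0.0483). Its call was lost without any 1 library (adjusted p 0.065 to 0.122) and under median of ratios scaling (0.162). The roquin genes Rc3h1 and Rc3h2 and the regnase-1 gene Zc3h12a, which act on Icos or Tnfrsf4 mRNA and were chosen for that role after their values were seen, had log2 fold changes of 0.43, 0.41 and 0.75, none of which passed the test. Under median of ratios scaling Rc3h1 (0.81, adjusted p = 0.0465) passed the threshold on p, as 8.33% of tested genes did in the higher direction. Rc3h2 (adjusted p = 0.171) and Zc3h12a (0.0858) did not.

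Of 23 tested transcription regulators of T cell activation and checkpoint genes, 0 were called higher and 2 lower, beside the same 2.63% and 16%, with a median of -0.01. Ikzf1, the gene of Ikaros, fell from 129 ± 16.2 to 48.6 ± 10.1 TPM (log2 fold change -1.40, SE 0.24, adjusted p = 0.0112). Nr4a2, an orphan nuclear receptor induced by antigen receptor signals, fell from 4.76 ± 1.96 to 0.744 ± 0.256 TPM (-1.68, SE 0.34, adjusted p = 0.0171). Batf, an AP-1 family factor of helper T cells, was the most abundant, at 503 ± 63.3 and 350 ± 59.0 TPM (-0.53, adjusted p = 0.141). With the replicate term 4 were called lower, against 21.9% of tested genes, the others being Bcl6 and Nfkb2. Nr4a2 and Bcl6 (3.55 TPM at 37°C and 0.304 TPM at 26°C) passed the filter on low values through their level at 37°C.

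Most of the 13 calls of these lists depended on single libraries, and so did the number of calls over all tested genes. Those of Cd200r1 and Traf1 held without any 1 library, and that of Fbxo38 was lost without non-acclimated replicate 2 (adjusted p = 0.0518). Ikzf1 was not called without non-acclimated replicate 2 (adjusted p = 0.0577) or cold-acclimated replicate 1 (0.0539). Without non-acclimated replicates 1, 2 and 3 in turn, 4, 2 and 9 of the 13 were called, and without cold-acclimated replicates 1, 2 and 3 in turn, 3, 4 and 12 were. Of all 12227 tested genes, 1954 were called lower with all libraries. Without non-acclimated replicates 1, 2 and 3 in turn, 527, 345 and 1820 were. Without cold-acclimated replicates 1, 2 and 3 in turn, 450, 600 and 2725 were. Vav1, Nr4a2 and Adam10 were each lost without replicate 1 or 2 of either condition, with adjusted p of 0.057 to 0.0665, 0.0586 to 0.067 and 0.0959 to 0.113.

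**Figure D4:**
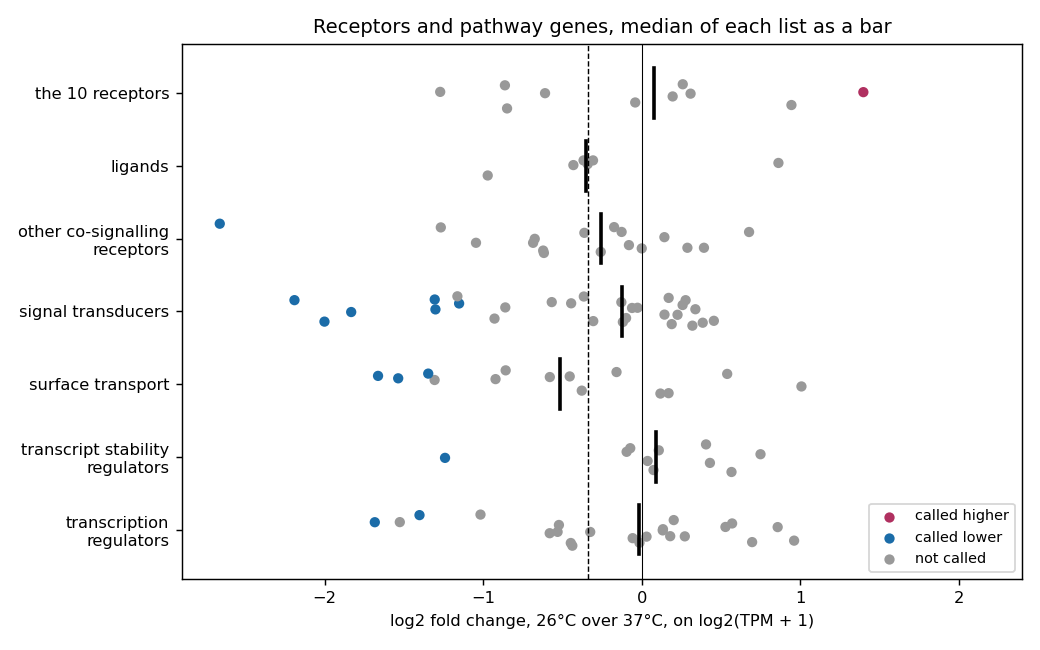
Log2 fold change at 26°C over 37°C of each tested gene of the receptor group and of 6 related lists (points, spread vertically for display), with the median of each list (bar) and of all tested genes (dashed, -0.34). Tnfrsf4 is the single gene called higher, and the called genes of the other lists, 13 in all, lie below 0.

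For the 3 most abundant receptors, the genes with the most similar profile over the 6 libraries were sought among the 9743 genes that averaged 5 TPM or more. The Pearson correlation of log2(TPM + 1) with Icos was 0.99 for Tollip, an adaptor that restrains innate immune signalling, which was at 51.8 to 96.4 TPM at 37°C and 125 to 211 TPM at 26°C, and 0.989 for the uncharacterized gene 4930413G21Rik. With Lag3 it was 0.997 for Snx22, a sorting nexin, and 0.993 for Rnasek, a ribonuclease. With Tnfrsf9 it was 0.992 for Il13 and 0.99 for Tesc, a calcium-binding protein. Il13, a cytokine of type 2 helper T cells, was at 54.5, 2.12 and 338 TPM in non-acclimated replicates 1, 2 and 3 and at 173, 2.30 and 171 TPM in cold-acclimated ones, lowest in replicate 2 as Tnfrsf9 was. The 6 points share temperature and culture, and these correlations describe the libraries.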

How the data were processed

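RNA was sequenced in 6 libraries of D10 T cells, 3 per condition. The authors selected poly(A)+ RNA, built strand-specific libraries and sequenced them as paired ends. Their processing notes name Trimmomatic 0.38, HISAT2 2.1.0 and featureCounts 1.6.3 on GRCm39, and genes were tested by a count model there. The sources used here do not give the annotation release, the strand setting or the gene lengths. Values are TPM as deposited by the authors. Reads were recovered from the steps of each gene's TPM values for 21195 genes with a value above 0, and the largest deviation from a whole number was 8.73e-11 (tolerance 1e-06). For 901 genes the step was a multiple of that of 1 read and was resolved by a common factor. Counting intervals are exact binomial (95%) and cover counting error only.

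The 12227 genes averaging 1 TPM or more were log-transformed as log2(TPM + 1) and tested two-sided with limma 3.58.1 (R 4.3.3), letting the variance follow the mean, with Benjamini-Hochberg adjustment. A gene was called when its adjusted p was under 0.05 and its change was 1 or more on the log2 scale. At such thresholds the study's count model reported more genes higher than lower in the cold, the reverse of the balance in this fit. A fold change on this scale understates the change of low genes. Same-numbered libraries deviated together (Pearson correlation of deviations from the condition means 0.48, 0.503 and 0.512; other pairings -0.408 to 0.0186), so the numbers were taken to pair the libraries. The cultures were stated to be independently prepared. Ratios used exact permutation tests over libraries.

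The 10 receptors and all gene lists were chosen with earlier results of these data known. Genes named from each list were the called ones with the 2 smallest p in each direction and the most abundant one, and for the 3 most abundant receptors the 2 genes of most similar profile; others named are said to be so or complete a count. Alternatives were another pseudocount, no filter, median of ratios scaling, quantile normalization, voom with TMM on recovered reads, a replicate term, and leaving out libraries. Sequences come from the GRCm39 genome with GENCODE M39. Python 3.11.15, numpy 2.4.6, pandas 2.3.3, scipy 1.17.1 and matplotlib 3.10.9 were used.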

Additional observations from a re-analysis of the deposited data

How the results depend on the processing

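The number of receptors called higher was 1 (Tnfrsf4). It was 2 with median of ratios scaling or voom, each with or without the replicate block, and 0 without the filter on low values, without replicate 1 in both conditions or without replicate 2 in both conditions; leaving out 1 library gave 0 to 1. The number called lower was 0. It was 1 with voom and the replicate block, 2 without replicate 3 in both conditions, and 0 to 1 without 1 library. The median log2 fold change of the receptors was 0.08, against 0.46 with median of ratios scaling (with or without the block), 0.48 with voom, 0.45 with voom and the block, and -0.34 to 0.39 without 1 library. The replicate block alone changed no call of a receptor and left the counts at 1 higher and 0 lower, with Tnfrsf18 passing on p only (0.0267). Combinations of scaling or voom with the block, and leaving out a replicate number in both conditions, were chosen after seeing the data.

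Of 17 alternatives per receptor, Tnfrsf4 was called in 9, Icos in 5, Pdcd1 in 3 and Tnfrsf18 in 1. Direction held in all 17 for Icos, Pdcd1, Tigit, Tnfrsf4 and Tnfrsf18, at sizes without 1 library of 0.81 to 1.14, -2.03 to -0.74, -1.54 to -0.24, 1.19 to 1.56 and -1.58 to -0.33. Without 1 library the log2 fold change ranged from -1.52 to 0.16 for Cd28, -0.73 to 1.02 for Ctla4, -0.26 to 0.94 for Lag3, -0.22 to 0.59 for Havcr2 and -0.86 to 0.80 for Tnfrsf9. Ctla4 was at -0.12 without replicate 3 in both conditions, and Lag3 at -0.0071 without replicate 2 in both. Tnfrsf9, at -0.04, turned to 0.35 with median of ratios scaling (with or without the block), 0.0699 with quantile normalization, 0.33 with voom, 0.32 with voom and the block, and 0.10 without replicate 3 in both conditions. The Ctla4 to Cd28 ratio difference of 0.92 ranged from -0.57 to 2.15 without 1 library, that of Icos to Cd28 (1.55) from 0.66 to 2.66, and that of Tnfrsf4 to Tnfrsf18 (2.26) from 1.89 to 2.79. Ratios of TPM with no constant added were also chosen after seeing the data. The cause of these changes was not tested. Depth limits Tnfrsf4 at 37°C (23 reads in all) and Pdcd1 at 26°C (50 reads), and 3 cultures per condition limit every p.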
